A study of Danio rerio with 6 samples.

Results

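Members of the Msx, Twist and Prrx families, with lhx9 and tbx5a, are transcription factor genes, many of them associated with the undifferentiated mesenchyme of growing fins and limbs. The cell layer that held each transcript was not measured in these libraries. The group was taken from the deposited count table by gene name, and 10 of 10 listed names had an entry, each a single one, out of 53709 entries in all. Of the 10, 9 passed the filter on low counts, as did 25962 entries of the whole table, and tbx5a did not. The libraries were made from poly(A) RNA of the regrowing tail fin (caudal fin blastema) of male Danio rerio at 4 days after amputation. In the ZnO group, each fish was kept in a beaker with 2 mg/L of zinc oxide nanoparticles prepared with propolis extract (Pro-ZnO). Control fish were kept in 150 mL of distilled water. Both groups had the same amputation and time, with 3 libraries each, and the labels name 5 fish per group in triplicate without saying which fish went into which library, so each p-value reflects the spread among libraries, which may be technical. The sources used here give no strain, age or genotype. Neither propolis extract nor dissolved zinc was given alone, so their parts and that of the particles cannot be told apart.

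A cut fin ray regrows from a blastema, a cap of dividing mesenchymal cells under a wound epidermis. Msx genes encode homeodomain proteins that mostly repress transcription, are induced by Bmp and Fgf signals and are known for keeping cells at the tip of growing appendages undifferentiated. Twist genes encode basic helix-loop-helix factors that hold mesenchymal and bone precursor cells back from differentiation in mammals, and Prrx1 is a paired-type homeodomain factor of the limb bud and connective tissue lineage in mouse.

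No member differed between ZnO and control fins past the threshold over all entries. Of the 9 tested members, 8 had a log2 fold change above 0 and 1, prrx1a, below it, with 0 called by edgeR's quasi-likelihood test at an adjusted p under 0.05 and 0 by DESeq2. Over the whole table edgeR called 0.428% of entries (0.0963% higher and 0.331% lower), DESeq2 called 4.57%, and 52% had a log2 fold change above 0. At an unadjusted edgeR p under 0.05 stood 4 of 9 members, all with higher values in ZnO, against 15.9% of all entries (7.72% higher and 8.2% lower). Without control 2 that number was 1, against 3362 of 26651 entries. The members were chosen with earlier results of these data known and largely share their order of libraries. Their shares are therefore a description and not a test. In 5 of 9 every ZnO library exceeded every control and in 0 of 9 every ZnO library was below every control, against 11.3% and 11.2% of all tested entries, 22.5% together. The 5 include twist2 and twist1a, where ZnO 1 and control 1 were nearly equal (49.47 and 49.46 CPM, and 39.24 and 38.98 CPM). The members' median log2 fold change was 0.26, and that of the whole tested table was 0.01. Levels are given as CPM, counts per 1000000 after TMM scaling, which do not correct for transcript length and so are not compared between genes. Libraries held 26624174 to 31712994 counts, and 1 count was worth 0.0316 to 0.0383 CPM. In whole fin tissue, fewer cells of a type and less RNA per cell cannot be told apart.

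**Figure D1:**
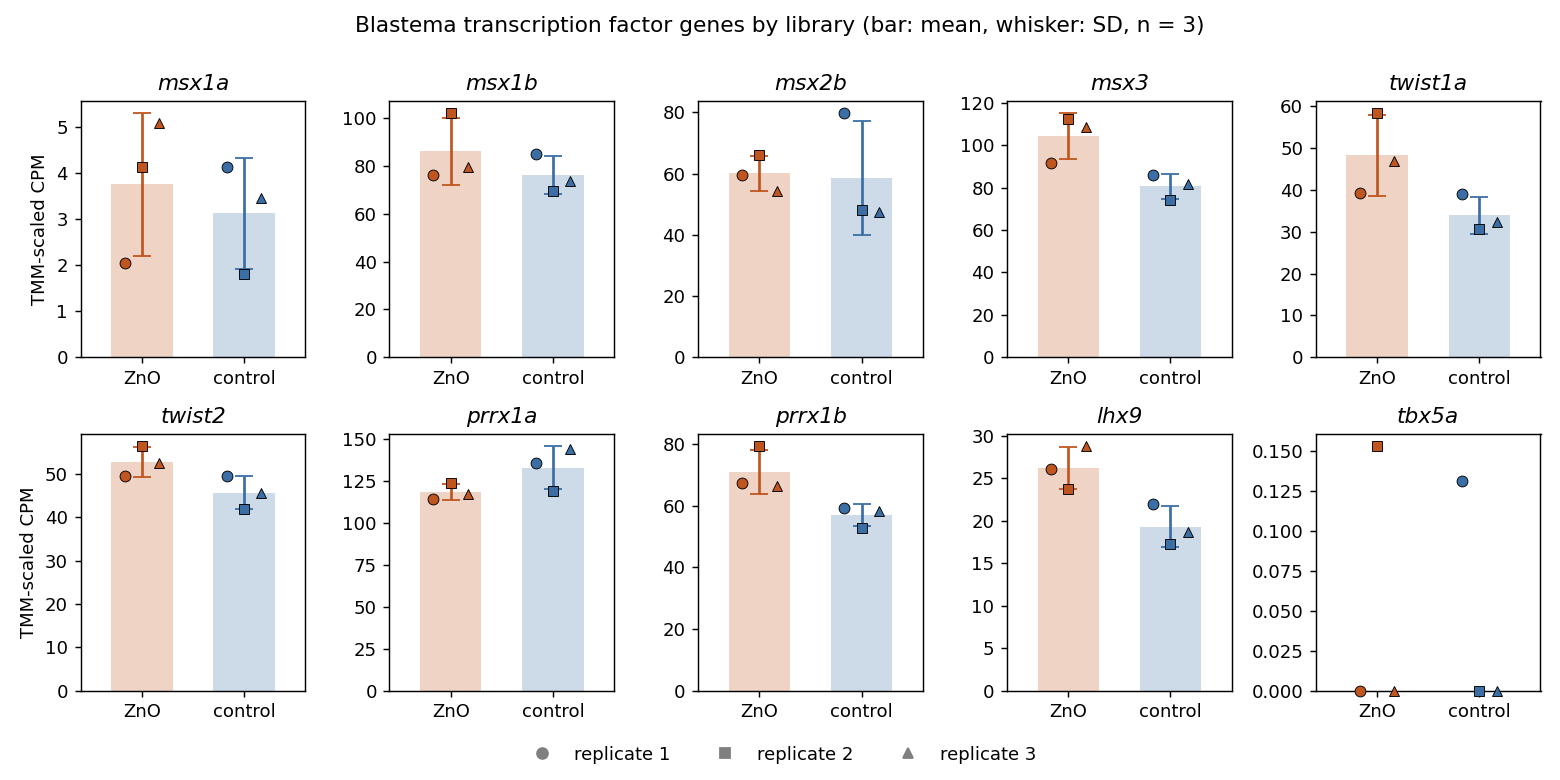
Level of each member in CPM in the ZnO and control libraries, with replicate numbers as symbols, bars at the mean and whiskers at the SD (n = 3 each). The ZnO points of msx3, twist1a, twist2, prrx1b and lhx9 lie above all controls, those of twist1a and twist2 by a narrow margin. Those of msx1a, msx1b, msx2b and prrx1a overlap the controls, and tbx5a, shown as points alone, has 4 counts in 1 library of each group.

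Of the 4 Msx members, msx3 was the one whose groups did not overlap, and none passed the test. The gene msx3, formerly msxc and known from the distal blastema, was at 91.8, 112.5 and 108.8 CPM in the ZnO libraries, against 86.1, 74.1 and 81.8 CPM in controls. Each ZnO value was above each control value, with the lowest ZnO and the highest control library close together. The log2 fold change was 0.37 ± 0.12 (SE; edgeR adjusted p = 0.200). The 95% interval ran from a 1.07-fold to a 1.57-fold higher level.

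The distal blastema gene msx1b, formerly msxb, was at 76.3, 102.3 and 79.7 CPM in ZnO fins and at 85.2, 69.7 and 73.6 CPM in control fins. Only ZnO 2 lay above all controls, and control 1 exceeded the other 2 ZnO libraries. Its log2 fold change was 0.18 ± 0.14 (SE; edgeR adjusted p = 0.605), and 0.02 without ZnO 2. The interval, 0.898-fold to 1.42-fold, did not reach 1.5-fold in either direction, but it reflects a spread among libraries that may be technical.

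For msx2b, formerly msxd, the controls did not resemble one another. It had 59.7, 66.0 and 54.4 CPM in ZnO libraries, against 79.9, 48.2 and 47.5 CPM in controls. All ZnO values fell between control 1 and the other controls, and the control coefficient of variation was 31.6%, against 9.62% in ZnO. The fold change was 0.04 ± 0.21 on the log2 scale (SE; edgeR adjusted p = 0.953), was 0.33 without control 1 and took negative values without control 2 (-0.09), control 3 (-0.10) or ZnO 2 (-0.05).

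The least counted Msx gene was msx1a, formerly msxe, with 59, 108 and 152 counts in ZnO libraries and 126, 51 and 109 in controls. These were 2.05, 4.14 and 5.08 CPM in ZnO and 4.14, 1.80 and 3.45 CPM in control fins. Both groups spanned more than 2-fold and overlapped widely. The interval was accordingly broad, from 0.636-fold to 2.26-fold around a log2 value of 0.26 ± 0.40 (SE, ZnO over control, edgeR adjusted p = 0.801), and the sign turned without ZnO 3 (-0.022) or control 2 (-0.015). Summed over the 4 Msx members, the level was 254 ± 28.0 CPM in ZnO and 219 ± 32.5 CPM in control libraries (SD, n = 3 each), with control 1 at 255.3 CPM above 2 of the 3 ZnO libraries. This sum covers whole fin tissue and is not a level of blastema mesenchyme alone. The remaining zebrafish Msx gene, msx2a, is not a member and has 2 entries. These averaged 10.7 ± 2.09 (msx2a_1) and 1.89 ± 0.455 CPM (msx2a) in ZnO and 9.08 ± 1.86 and 1.33 ± 0.160 CPM in control fins (SD, n = 3 each), with overlapping groups at both. How reads shared by near-identical copies or by 2 entries of 1 gene were counted is not given, so splits between copies are less certain.

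**Figure D2:**
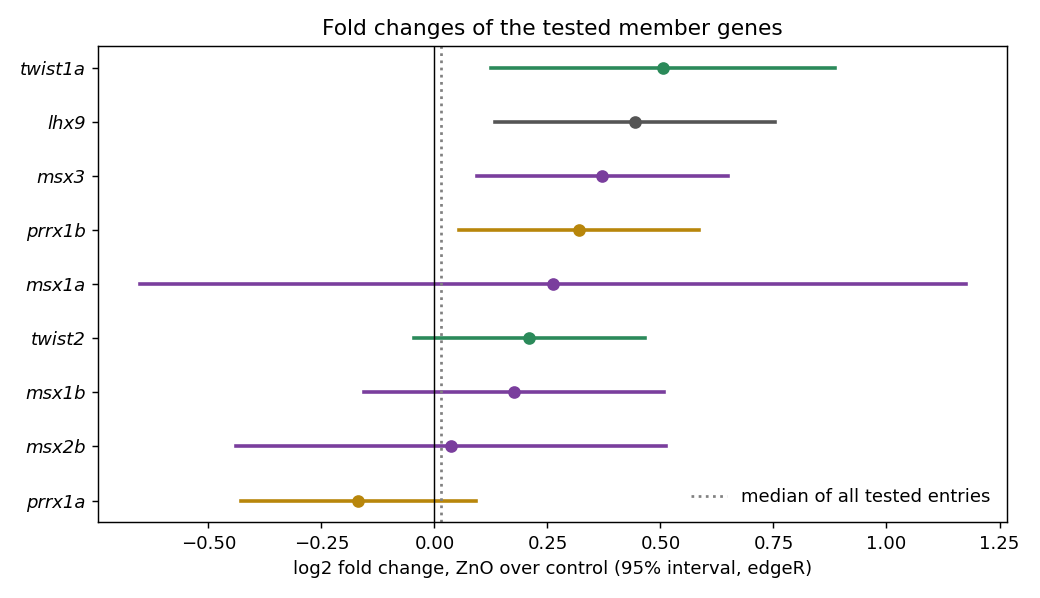
Log2 fold change of the 9 tested members, ZnO over control (x axis), as points with 95% intervals from edgeR, ordered by size and coloured by family. Intervals of twist1a, lhx9, msx3 and prrx1b lie above 0, none passed after adjustment over all entries, and msx1a has the widest.

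Both Twist members had higher values in every ZnO library than in any control. twist1a, whose mammalian counterpart is needed for limb bud outgrowth, was at 39.2, 58.5 and 47.1 CPM in ZnO fins, against 39.0, 30.6 and 32.3 CPM in controls. The groups were separated by a narrow margin, between ZnO 1 and control 1. Its log2 fold change, 0.51 ± 0.17 (SE), was the largest among the tested members and did not pass (edgeR adjusted p = 0.201, over alternatives 0.118 to 0.41). Without ZnO 2, the highest library, it was 0.33, and without ZnO 1 it was 0.62.

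twist2, the former dermo1, a factor of dermal mesenchyme in mammals, varied little. Its levels were 49.5, 56.4 and 52.6 CPM in ZnO libraries and 49.5, 42.0 and 45.6 CPM in controls. ZnO 1 and control 1 were nearly equal (49.47 and 49.46 CPM), so the separation of the groups rests on that margin. The log2 fold change was 0.21 ± 0.11 (SE; edgeR adjusted p = 0.407), with an interval from 0.969-fold to 1.38-fold. In the RefSeq name table twist2 also serves as an older name of twist3, which has a separate entry here, so the 2 should not be confused. twist3 averaged 116 ± 5.66 CPM in ZnO and 102 ± 23.8 CPM in control fins, and twist1b 11.9 ± 1.19 and 11.5 ± 1.78 CPM (SD, n = 3 each), both with overlapping groups.

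The 2 copies of Prrx1 had fold changes of opposite sign. prrx1a was at 114, 123.5 and 117 CPM in ZnO libraries and at 135.5, 119 and 144 CPM in controls. ZnO 2 exceeded control 2, and the other control libraries lay above all ZnO libraries. On the log2 scale ZnO over control was -0.17 ± 0.11 (SE; edgeR adjusted p = 0.518), with an interval from 0.744-fold to 1.06-fold.

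prrx1b had 67.3, 79.4 and 66.5 CPM in ZnO fins and 59.4, 52.9 and 58.5 CPM in control fins. No ZnO library overlapped the controls. The log2 fold change was 0.32 ± 0.12 (SE; edgeR adjusted p = 0.238), from 1.04-fold to 1.5-fold, and 0.22 without ZnO 2.

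Because the copies differed in sign, their summed level hardly differed while their proportion did. The sum was 190 ± 11.6 CPM in ZnO and 190 ± 15.9 CPM in control libraries (SD, n = 3 each). Counts of prrx1a relative to prrx1b, a ratio within a library in which scaling cancels, were 1.70, 1.56 and 1.76 in ZnO libraries, against 2.28, 2.26 and 2.47 in controls. Every ZnO ratio was below every control ratio, and the gap between the groups was wider than the range within either. The mean ratio was 1.67 ± 0.106 in ZnO and 2.33 ± 0.116 in control fins (SD, n = 3 each), a log2 difference of -0.48. This pair was singled out after its values were seen, and no test was made of it. Among 980 pairs of entries whose names differ only by a final a or b, each with a mean of at least 10 CPM, 25.5% had ratios that did not overlap between the groups, and 15.9% had a log2 difference at least as large as that of the Prrx1 pair.

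Other pairs of members without overlap included 3 with larger log2 differences, all with prrx1a: -0.66 for prrx1a over twist1a, 0.61 for lhx9 over prrx1a and 0.53 for msx3 over prrx1a. twist1a relative to twist2 was at 0.793, 1.04 and 0.894 in ZnO libraries and at 0.788, 0.730 and 0.708 in controls, just without overlap. msx1b relative to msx3 was at 0.831, 0.910 and 0.732 in ZnO and at 0.99, 0.94 and 0.9 in control libraries, and these groups overlapped, as did those of msx2b relative to msx3 and of msx1a relative to msx1b. Of the 36 pairs that 9 members form, 9 did not overlap between groups, against 25.5% of the 980 pairs of a and b names. Of these 9 pairs, 6 contained prrx1a, which is in 8 of the 36 and was the only tested member with a log2 fold change below 0. The 36 pairs share their genes and libraries and are not independent of one another.

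**Figure D3:**
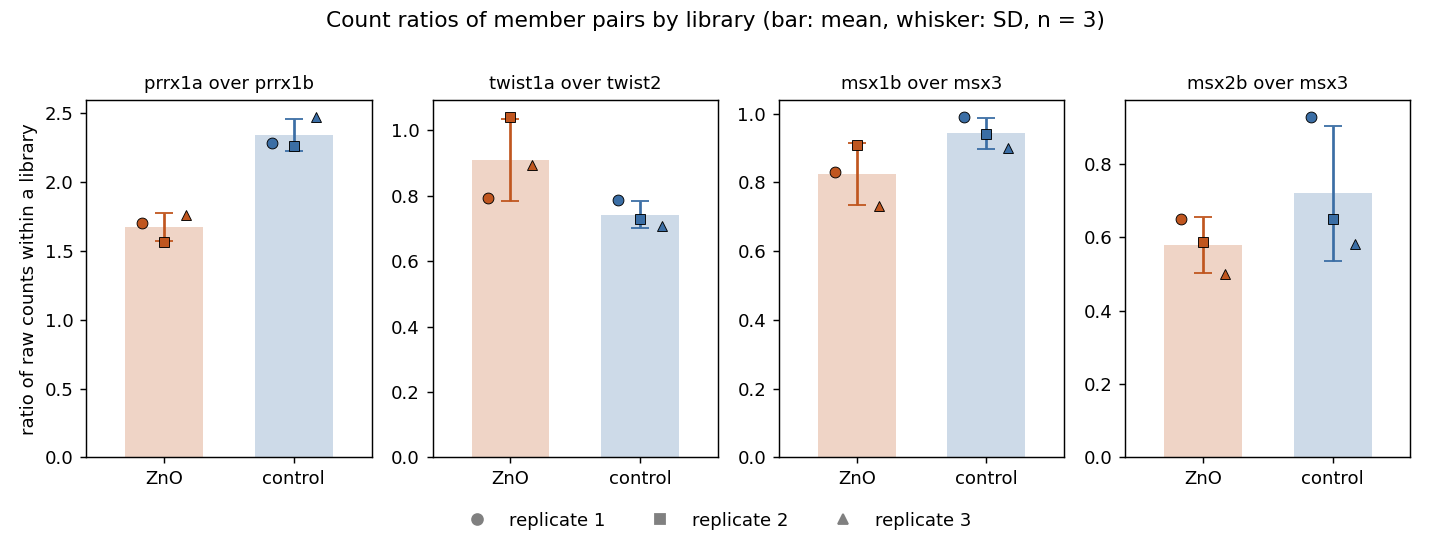
Ratio of raw counts of 2 members within each library (y axis), for the ZnO and control groups, with bars at the mean and whiskers at the SD (n = 3 each). The prrx1a over prrx1b ratios lie from 1.56 to 1.76 in ZnO and from 2.26 to 2.47 in controls, and both Msx ratios overlap between groups.

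lhx9, a LIM homeodomain gene that acts with Lhx2 in limb bud outgrowth in chick and mouse, was higher in every ZnO library than in any control. It was at 26.1, 23.8 and 28.8 CPM in ZnO fins, against 21.9, 17.2 and 18.7 CPM in controls. Its log2 fold change was 0.44 ± 0.14 (SE), with an interval from 1.098-fold to 1.69-fold and an edgeR adjusted p = 0.178 (over alternatives 0.135 to 0.399). The related gene lhx2b, no member, averaged 24.9 ± 0.186 CPM in ZnO and 24.2 ± 4.22 CPM in control fins (SD, n = 3 each).

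tbx5a, the T-box gene that starts pectoral fin growth in zebrafish, was close to undetected. It had 4 counts in ZnO 2 and 4 in control 1, and 0 in the other 4 libraries, where a count of 0 allows up to 0.0949 to 0.106 CPM for counting error only. No fold change was computed. Its copy tbx5b had 0 counts in all 6 libraries, and the pelvic fin genes pitx1 and tbx4 averaged at most 0.0614 CPM in either group. The posterior Hox genes hoxa13b and hoxc13a averaged 92.2 ± 4.36 and 70.0 ± 7.86 CPM in ZnO and 87.2 ± 2.82 and 55.4 ± 1.105 CPM in control fins (SD, n = 3 each). hoxd13a averaged 1.54 ± 0.878 CPM in ZnO and 1.28 ± 0.127 CPM in control fins (SD, n = 3 each). These Hox genes were named after their values were seen. The counts of tbx5a thus go against its description as a blastema gene in these fins, while the other 9 members were counted in every library.

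Within each group the members tended to share their order of libraries. Control 2 was the lowest control for 8 of 9 members and the lowest of all 6 libraries for 7, and control 1 was the highest control for 8. Over the 11727 tested entries with a mean of at least 10 CPM, control 2 was the lowest control in 36.3%, the lowest of all in 18.2%, and control 1 the highest control in 35.4%. Among ZnO libraries ZnO 2 was the highest for 7 members and ZnO 1 the lowest for 6, against 36.6% and 32.5% of those entries. Control 2 also had the lowest summed level of the blastema mesenchyme list (23280 CPM, against 27360 and 30410 CPM in the other controls), of osteoblast markers (8964 CPM, against 11590 and 12710 CPM) and of erythrocyte markers (28.7 CPM, against 113.9 and 151.1 CPM), and the highest control level of epidermis markers (71540 CPM, against 54640 and 61330 CPM). The sum of other fin and limb mesenchyme transcription factors was also lowest in control 2 (1424 CPM, against 1627 and 1538 CPM). So was that of genes listed as signals and transducers upstream of Msx genes (2395 CPM, against 2781 and 2509 CPM). AP-1 and other regeneration-induced factors had their highest control sum there (3575 CPM, against 2452 and 2014 CPM). Among ZnO libraries, ZnO 2 had the lowest blastema mesenchyme sum (24930 CPM, against 28570 in ZnO 1 and 25440 in ZnO 3). It also had the highest epidermis sum (84650 CPM, against 76820 and 68590 CPM). Osteoblast and erythrocyte sums were highest in ZnO 2 as well (14110 and 407.4 CPM), as was that of other mesenchyme transcription factors (1957 CPM). The AP-1 list had its highest ZnO sum in ZnO 1 (2435 CPM). The part of these differences in the members' order was not tested. Without control 2, the number of members at an unadjusted edgeR p under 0.05 was 1 in place of 4, and it was 2 without control 3 or without ZnO 2. It stayed at 4 without ZnO 1 or ZnO 3 and was 5 without control 1. Over all tested entries, 4132 of 25962 were at that p with all libraries, and 3362 of 26651 without control 2. The numbers were 3345 of 26600 without control 3, 3708 of 26754 without ZnO 2 and 3436 of 26567 without control 1. They were 4343 of 26654 without ZnO 1 and 3179 of 26542 without ZnO 3.

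**Figure D4:**
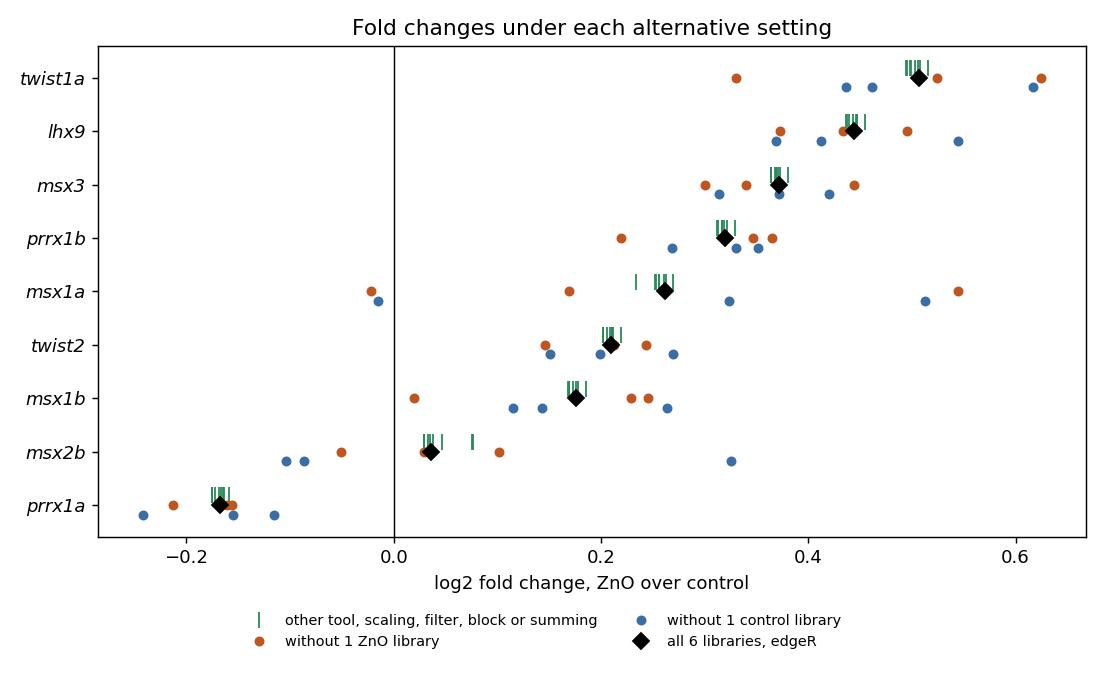
Log2 fold change of each tested member, ZnO over control (x axis), with all libraries (diamonds), without 1 library (circles) and under other tools, scalings, filters, the replicate block or summed entries (ticks). Other settings moved values little beside the omission of a library, and msx1a and msx2b crossed 0 when 1 library was left out.

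Other transcription factors of fin and limb mesenchyme mostly had values above 0, without a call by edgeR. Of 58 tested entries in that list 0 passed by edgeR in either direction, 47 had values above 0, 12 were at an unadjusted p under 0.05, all higher in ZnO, and the median log2 fold change was 0.20. DESeq2 called 5, all higher, among them osr1 and sox9b. Over all tested entries 52% were above 0, 7.72% were higher and 8.2% lower at that p, and DESeq2 called 4.57% in either direction. sox9b, a cartilage and fin ray regulator, averaged 162 ± 30.9 CPM in ZnO and 78.2 ± 14.6 CPM in control fins (SD, n = 3 each; log2 fold change 1.05 ± 0.19, SE, edgeR adjusted p = 0.0642). sox4a, the entry of the list with the highest CPM, averaged 172 CPM in ZnO and 146 CPM in controls. Summed levels of the list were 1759 to 1957 CPM in ZnO and 1424 to 1627 CPM in control libraries, without overlap.

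Genes listed as signals and transducers upstream of Msx genes, which include pathway targets and feedback inhibitors, had 68 tested entries. Of these, 0 passed by edgeR, 14 were higher and 5 lower at an unadjusted p under 0.05, and the median log2 fold change was 0.09. The shares over all tested entries were 7.72% higher and 8.2% lower at that p, and 4.57% called by DESeq2 in either direction. id1, a direct Bmp target, averaged 422 ± 62.4 CPM in ZnO and 326 ± 22.2 CPM in controls (SD, n = 3 each; log2 fold change 0.37 ± 0.14, SE, edgeR adjusted p = 0.247). bmp4 averaged 36.9 ± 2.92 CPM in ZnO and 27.9 ± 6.05 CPM in control fins (SD, n = 3 each), with an edgeR adjusted p = 0.283. Other Bmp ligand, receptor and id entries of the list had log2 fold changes above 0, except bmpr1ba (-0.04). They included 0.47 for bmpr1bb, 0.38 for bmpr2b and 0.01 for id3. Of the smad entries, smad5 (0.09) was above 0 and the others, such as smad9 (-0.10), were below it. bmp4, whose groups overlapped, and these entries were named after their values were seen. In the whole list 41 entries were above 0 and 27 below it. Among those below were etv4 (-0.28 and -0.31 for its 2 entries), lef1 (-0.30), inhbaa (-0.39) and aldh1a2 (-0.60 and -0.22). Others above 0 were wnt5b (0.44), axin2 (0.39) and fgfr3 (0.40 and 0.38), and these too were named after their values were seen. DESeq2 called grem1b, a Bmp antagonist gene, higher and dusp6, an Fgf feedback inhibitor, and igf2b, a growth factor, lower, and these 3 are named after their values were seen. The second entries of dusp6 and igf2b had log2 fold changes of -0.64 and -0.55 and were not called (DESeq2 adjusted p = 0.0566 and 0.114). Structural and signalling genes of blastema mesenchyme had a median log2 fold change of -0.12 over 34 entries with 0 calls by edgeR, 3 higher and 4 lower at an unadjusted p under 0.05, and 1 higher and 1 lower by DESeq2. Their summed level overlapped between the groups, at 24930 to 28570 CPM in ZnO and 23280 to 30410 CPM in control libraries. Among 21 entries of AP-1 and other regeneration-induced factors, edgeR called 0, with 1 higher and 1 lower at an unadjusted p under 0.05 and 1 lower by DESeq2 (median -0.23).

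Markers of leukocytes and erythrocytes lay apart between the groups beside these genes. Leukocyte markers were below 0 in 21 of 21 tested entries (median log2 fold change -0.69), with 3 lower by edgeR, coro1a, its second entry and csf3r. At an unadjusted p under 0.05, 16 were lower and 0 higher, and DESeq2 called 10 lower. Their summed level was 2642 to 3469 CPM in ZnO and 3943 to 4913 CPM in controls. Erythrocyte markers were above 0 in 13 of 13 (median 1.56), with 0 calls by edgeR, 7 at an unadjusted p under 0.05 and 6 by DESeq2, and summed to 153.5 to 407.4 CPM in ZnO and 28.7 to 151.1 CPM in controls. Osteoblast markers had a median of 0.30 over 14 entries, epidermis markers of 0.09 over 29, pigment cell markers of 0.38 over 15, endothelial markers of 0.06 over 12, skeletal muscle markers of -0.04 over 6, and nerve and glia markers of -0.27 over 14. None of these 6 lists had an edgeR call, with 16 entries higher and 4 lower at an unadjusted p under 0.05 in all and 6 higher and 2 lower by DESeq2. Of the 14 osteoblast entries, 6 were higher and 0 lower at that p, and DESeq2 called 2 higher. In 7 of the 14 every ZnO library exceeded every control, and in 0 every ZnO library was below. Of the 15 pigment cell entries, 5 were higher and 1 lower at that p, and DESeq2 called 3 higher. The lower entry, csf1ra, is also in the leukocyte list. In 2 of the 15 every ZnO library exceeded every control. Over all tested entries, 7.72% were higher and 8.2% lower at that p, and 11.3% were higher without overlap. Osteoblast sums were 10510 to 14110 CPM in ZnO and 8964 to 12710 CPM in controls. Most of these sums came from col10a1a and col10a1b, which averaged 6735 and 4160 CPM over all libraries. Epidermis sums were 68590 to 84650 CPM in ZnO and 54640 to 71540 CPM in controls. At 0 counts in every library stood 5 of 22 skeletal muscle entries and no entry of the other marker lists. The part of these cell types in the members' levels was not tested.

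**Figure D5:**
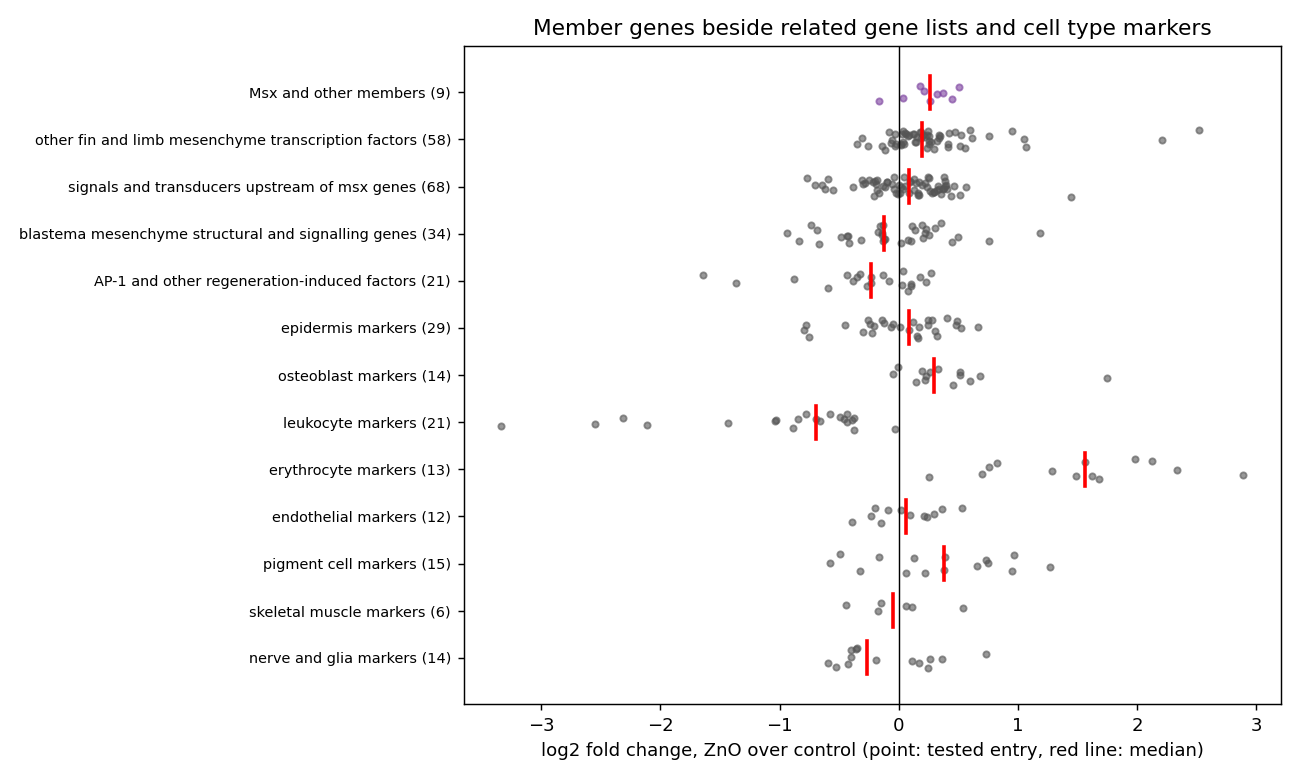
Log2 fold change of every tested entry, ZnO over control (x axis), for the members and for each related gene list or marker list, with the number of entries in brackets and the median as a red line. The members' median is 0.26, that of other fin and limb mesenchyme factors 0.20, of leukocyte markers -0.69 and of erythrocyte markers 1.56.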

How the data were processed

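Raw counts, not normalized by the authors, were deposited as 1 table of 6 libraries, sequenced as pairs of 150 bases per the labels' protocols. The submitters' processing notes name GRCz11 and the tools BWA, HTSeq, cutadapt and DESeq2. Versions, annotation, strand setting and handling of multi-mapping reads: not given in the sources used here. All count columns were matched to samples by library name.

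Entries were filtered with filterByExpr (minimum count 10), which kept 99.9% of counts, scaled by TMM (factors 0.981 to 1.02) and tested across the whole table with edgeR's quasi-likelihood test (robust, group only), with Benjamini-Hochberg adjustment and a threshold of 0.05. SE is the log2 fold change divided by the square root of F, and 95% intervals use its t quantile. The common biological coefficient of variation was 0.221. Tested on simulated counts of the same 2 groups (25518 entries), the fit recovered 22% of 1.5-fold, 66% of 2-fold and 100% of 4-fold changes. The changed entries had a mean of at least 100 counts, and spread was simulated from the trend with level alone. Recovery for entries with fewer counts or more spread than that trend was not measured.

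Members and lists were chosen with earlier results of these data known. Named list genes are among the 3 with the highest mean CPM in their list, past the threshold, copies of members, or as stated in the text. Other genes outside that rule (bmp4, hoxa13b, hoxc13a, pitx1, tbx4, osr1) were chosen after their values were seen. Each of 10 members matched a RefSeq symbol (GRCz12tu, used for names only). Transcript lengths, sequences and coordinates are not used here. Alternatives were DESeq2, limma-voom, RLE and upper-quartile scaling, no filter and 1 CPM in 3 libraries, a replicate block, omission of each library, and entries of a symbol summed. Software was edgeR 4.0.16, DESeq2 1.42.0 and limma 3.58.1 in R 4.3.3, with matplotlib 3.10.9, numpy 2.4.6 and pandas 2.3.3 in Python 3.11.15.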

Additional observations from a re-analysis of the deposited data

How the results depend on the processing

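No member passed the adjusted threshold under any of the 14 alternatives. Of 126 fold changes of members recomputed, 121 kept their sign and 5 turned, all for msx1a (-0.022 to 0.54 on the log2 scale with 1 library left out) and msx2b (-0.10 to 0.33). Between 6 and 8 members were above 0, and with 1 library left out 1 to 5 were at an unadjusted edgeR p under 0.05. Over all tested entries, the numbers at that p ran from 3179 of 26542 (without ZnO 3) to 4343 of 26654 (without ZnO 1). Calls over all entries moved more: edgeR's 25 higher and 86 lower became 419 and 772 with DESeq2, 122 and 283 without a filter, 15 higher with limma-voom and 14 higher with the 1 CPM filter. They were 87 and 282 without ZnO 1, 2 and 26 without ZnO 2, 0 and 12 without ZnO 3, 2 and 32 without control 1, 4 and 29 without control 2, and 0 and 25 without control 3. With the replicate number as a block, 3 were higher and 29 lower. Same-numbered libraries deviated from their group means with Pearson correlations of 0.0143, -0.049 and 0.0778 across entries, and ZnO 1 correlated best with control 2 (0.156), so the numbers were not taken as pairs. tbx5a, with at most 4 counts in a library, was below the count filter of the main fit.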
